A study of Mus musculus with 8 samples.

Results

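The response of RBP-J knockout macrophages to TNF was measured by comparing small RNA from knockout cells given TNF for 24 hours with small RNA from unstimulated knockout cells. Every microRNA (miRNA) row of 2 deposited tables was taken, with 4 of the 8 libraries of the study, and each table held 1 library of each kind. The rows named 482 miRNAs in all, of which 197 stood in both tables, 132 in 1 table only and 153 in the other only. The 4 wild-type libraries served only to show where the knockout differed.

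Knockout cells carried the genotype Rbpjf/f; LysM Cre, in which floxed Rbpj alleles are cut by a Cre driven from the lysozyme M gene, a promoter active in macrophages and other myeloid cells. Wild-type cells carried the label WT. All mice were of a mixed C57BL/6 and 129 background that was over 90% C57BL/6. Marrow cells of both genotypes were grown for 3 days with M-CSF (CMG14-12 supernatant, the equivalent of 20 ng/ml), so the controls had the same growth factor. Small RNA libraries hold no Rbpj message, and the completeness of the deletion was not analysed here. Nothing in the labels ties a library to an animal or a culture, and each p-value therefore covers the spread between these libraries alone, a spread that may be technical.

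TNF binds its receptors on macrophages and activates NF-kB, which drives inflammatory genes and a small set of miRNA genes, miR-155 best known among them. RBP-J is the DNA-binding partner of Notch receptors, and in macrophage precursors it is known to hold back the turn to bone-resorbing osteoclasts that TNF can induce. A miRNA guides the silencing machinery to messages that pair with its seed, bases 2 to 8 of the mature strand, so miRNAs with one seed share many targets.

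The mature strands that the results turn on are shown first, from RefSeq on GRCm38.p6, 5′ to 3′, with the seed in capitals. Among the leading higher miRNAs shown, miR-449a and miR-449c share a seed. miR-34c, of the same family, was among the leading miRNAs too and is named without a sequence.
miR-155-5p: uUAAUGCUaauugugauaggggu
miR-182-5p: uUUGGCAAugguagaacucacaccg
miR-183-5p: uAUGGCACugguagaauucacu
miR-449a-5p: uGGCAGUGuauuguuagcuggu
miR-449c-5p: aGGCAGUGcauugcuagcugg
miR-34a-5p: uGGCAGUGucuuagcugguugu
miR-129-5p: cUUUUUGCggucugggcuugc
miR-31-5p: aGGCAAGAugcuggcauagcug
miR-365-2-5p: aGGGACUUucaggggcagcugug
miR-365-3p: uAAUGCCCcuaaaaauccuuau
miR-34a, miR-449a and miR-449c carry the same seed, and from the 5′ end miR-449a matched miR-449c at 18 of 21 bases and miR-34a at 15 of 22. miR-182 and miR-183 come from one precursor cluster and matched at 18 of 22 bases, but at only 5 of the 7 seed bases. On the lower side stood 2 members of a family with one seed, miR-181c and miR-181d, shown with the abundant miR-181a of that family.
miR-181c-5p: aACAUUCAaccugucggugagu
miR-181d-5p: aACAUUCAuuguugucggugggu
miR-181a-5p: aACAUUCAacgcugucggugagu

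In the first table the authors gave CPM, reads scaled to a fixed library total, for mature miRNA arms, and in the second the values behave as RPKM, reads per hairpin length and library size. Knockout libraries of the CPM table held 353138 reads unstimulated and 848651 with TNF, so that 1 read was worth 2.83 and 1.18 CPM. In the RPKM table the recovered depth was 14892634 and 13574375 reads, and listed miRNAs took 44.6% and 53.2% of it. Levels in CPM and RPKM are not on one scale, so each change was taken within a table and no mean level over both is given. As a check of the label, miR-142a and miR-223, which mark blood and myeloid cells but not macrophages alone, were present in all knockout libraries. The level of miR-142a was 14314 CPM unstimulated and 10504 CPM with TNF, that of miR-223 was 4522 and 989 CPM, and the liver miRNA miR-122 had 1 read and 0 reads.

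Over 184 miRNAs tested, those listed in both tables with a mean of at least 5 over all 8 libraries, none passed the test for TNF in the knockout (0% of 184 in limma at a Benjamini-Hochberg adjusted p of 0.05, lowest adjusted p = 0.278). DESeq2 on recovered reads called 4 (2.17%), edgeR on the same reads called 1 (0.543%), and limma on the 4 knockout libraries alone called 5 (2.72%), all of them higher with TNF. At an unadjusted p under 0.05 in limma, 15 were higher (8.15%) and 1 was lower (0.543%). On the log2(value + 1) scale 15 miRNAs were at least 2-fold higher in both tables (8.15%) and at least 2-fold lower in both were 2 (1.09%), with 39 higher in both at any size (21.2%) and 47 lower in both (25.5%). Of the 15, 3 (miR-879, miR-1930 and miR-1960) had at most 5 reads in the CPM table, too few for a fold there, which leaves 12. In all, 86 of the 184 (46.7%) went the same way in both tables. The median log2 change was -0.41 among CPM values and 0.31 among RPKM values, and measured from these medians 110 (59.8%) went the same way. With 2 tables the typical miRNA had a standard error of 0.75 and a 95% interval of ± 1.66 on the log2 scale.

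**Figure D1:**
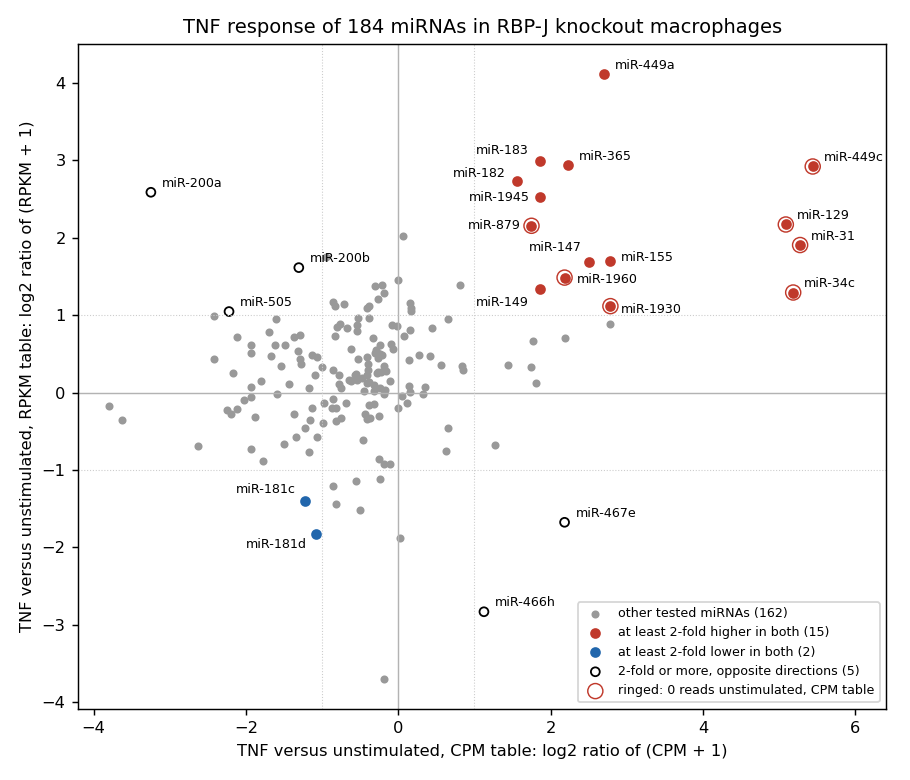
Each of the 184 tested miRNAs is a point, with its log2 ratio of TNF to unstimulated knockout in the CPM table on the x axis and in the RPKM table on the y axis, both after adding 1. The 15 in red lie at least 2-fold higher in both tables, the 2 in blue at least 2-fold lower in both, 5 open black circles differ at least 2-fold in opposite directions, and rings mark 7 with 0 reads in the unstimulated CPM library.

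Among TNF and NF-kB responsive miRNAs, 7 of 12 tested were higher in both tables and 2 were lower, and 5 had an unadjusted p under 0.05, all higher. Over all 184 the shares were 21.2% higher, 25.5% lower and 8.15% higher at that p. The list's median log2 fold change in the fit was 0.80 against -0.10 over all 184. The list and every other list here were drawn up with results of these libraries known.

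miR-155, which is made from an exon of the noncoding host gene Mir155hg (hairpin at chromosome 16, 84714140 to 84714204, GRCm38), is induced by NF-kB and AP-1 in activated macrophages. Its knockout level was 156 CPM unstimulated and 1075 CPM with TNF, or 55 and 912 reads, and 2814 and 9177 RPKM. Each TNF library thus lay above the unstimulated knockout library of its table. The fitted log2 fold change was 2.24 ± 0.54 (SE, limma), with an unadjusted p of 0.00189, an adjusted p of 0.278 in limma, 0.00738 in DESeq2 and 0.0318 in edgeR, the one miRNA that both count models called. miR-147, whose hairpin lies in an exon of AA467197 and which Toll-like receptor signals induce in mouse macrophages, had 8.5 CPM unstimulated and 53.0 CPM with TNF, from 3 and 45 reads. Its RPKM values were 252 and 814, and the fitted change was 2.10 ± 0.81 (limma, adjusted p = 0.41).

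miR-221 and miR-222 are made from one precursor on the X chromosome, share a seed and restrain the cell cycle inhibitor p27.
miR-221-3p: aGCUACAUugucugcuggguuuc
miR-222-3p: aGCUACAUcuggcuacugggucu
miR-222 was the one miRNA that stood both among the 10 most abundant and at an unadjusted p under 0.05. It had 22699 CPM unstimulated and 39671 CPM with TNF, and 64520 and 168868 RPKM, a fitted change of 1.10 ± 0.36 (limma, adjusted p = 0.278). miR-221 was higher in both tables as well, by 0.44 and 0.83 on the log2 scale (adjusted p = 0.706). Summed over the seed, the pair held 28360 CPM unstimulated and 47333 CPM with TNF, and 115775 and 259972 RPKM, the largest same-direction change among the 24 seed groups with more than 1 tested member.

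The cluster of miR-99b, let-7e and miR-125a lies in the gene Spaca6 on chromosome 17, with Mir125a in an exon and Mir99b in an intron. miR-125a, whose targets include the inhibitor of NF-kB signalling A20, had 886 CPM unstimulated and 3028 CPM with TNF, and 66737 and 105787 RPKM. The fitted change was 1.22 ± 0.44 (limma, adjusted p = 0.334). miR-99b had 476 and 1664 CPM but 104321 and 113312 RPKM, so its higher level rested on the CPM table. let-7e, listed in the CPM table only, stood at 3257 CPM unstimulated from 1150 reads and 7055 CPM with TNF from 5987 reads.

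miR-146a and miR-146b, which dampen NF-kB by acting on TRAF6 and IRAK1, were the only tested members of the list that were lower in both tables.
miR-146a-5p: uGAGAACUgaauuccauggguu
miR-146b-5p: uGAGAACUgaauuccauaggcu
miR-146a had 13717 CPM unstimulated and 10341 CPM with TNF, and 149103 and 117927 RPKM (fitted change -0.37 ± 0.34). miR-146b had 8841 and 4861 CPM but only 15.4 and 6.08 RPKM (-1.04 ± 0.70). The mature strands differ at 2 of 22 bases, and the division of their reads differed between the tables, so miR-146b alone is uncertain. Neither passed (adjusted p = 0.94 and 0.843 in limma). miR-132 and miR-212, a pair from one precursor, were on opposite sides in the tables, with miR-132 at 70.8 and 21.2 CPM but 195 and 337 RPKM.

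Of 12 tested Notch or RBP-J linked miRNAs, 6 were higher in both tables and 4 were lower, and 6 had an unadjusted p under 0.05, all higher, against the same 21.2%, 25.5% and 8.15% of all 184. The median log2 fold change was 1.44, or 1.20 with miRNAs at 0 reads set to 3 reads, against -0.10 over all 184. The higher members were miR-155, the miR-182 and miR-183 pair and 3 of the miR-34 and miR-449 family.

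miR-182 and miR-183 lie together on the minus strand of chromosome 6 (30165918 to 30169737), outside annotated genes in GENCODE M21, and miR-182 acts on the forkhead factors FOXO1 and FOXO3. In the RPKM table miR-182 was at 334 without and 2232 with the cytokine, and in the CPM table at 657 and 1936. miR-183 was at 53.7 and 436 RPKM and at 65.1 and 239 CPM, from 23 and 203 reads. For each miRNA of the pair the TNF value lay above the unstimulated knockout value in each table. The fitted changes were 2.15 ± 0.66 and 2.43 ± 0.80, each with a limma adjusted p of 0.278, and DESeq2 gave 0.0596 and 0.0159. miR-96, which lies between them, had 1 and 2 reads in the RPKM table.

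The family of miR-34 and miR-449 is known as a brake on the cell cycle, with miR-34a induced by p53 and miR-449 abundant in ciliated epithelium. Of its 5 tested members, 3 scarce ones were higher with TNF in both tables and the most abundant, miR-34a, was lower in both. The scarcest, miR-34b, had 0 reads in both CPM libraries and was at 7.99 and 23.7 RPKM. miR-449c had 0 CPM unstimulated and 42.4 CPM with TNF, from 0 and 36 reads, and 4.93 and 43.9 RPKM, from 8 and 65 reads. Set against 3 reads, the smallest count told from none, the CPM value was at least 4.99-fold higher. This bound, like those given below for other miRNAs, leaves out the counting error of the TNF reads. miR-449a had 5.66 and 42.4 CPM, from 2 and 36 reads, and 11.1 and 208 RPKM, from 15 and 257 reads. miR-34c had 0 and 35.4 CPM, at least 4.16-fold higher, and 351 and 863 RPKM.

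The fitted changes in this family were 4.18 ± 1.08 for miR-449c, 3.41 ± 1.04 for miR-449a and 3.24 ± 1.08 for miR-34c, each with a limma adjusted p of 0.278. With the 4 knockout libraries alone limma called all of them (adjusted p = 0.0133, 0.0396 and 0.0464), and DESeq2 called miR-449a (0.00971). A fitted change that starts from 0 reads depends on the added 1 and is no bound. miR-34a went the other way, at 227 CPM unstimulated and 101 CPM with TNF and at 4067 and 3193 RPKM (-0.75 ± 0.57, adjusted p = 0.885).

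The summed level of the family was close in the unstimulated and TNF libraries, with miR-34a lower and the other members higher. Over the 5 tested members it was 232 CPM unstimulated and 221.5 CPM with TNF, and 4442 and 4332 RPKM. The share of miR-34a in that sum was 97.6% unstimulated and 45.7% with TNF among CPM values, and 91.5% and 73.7% among RPKM values. In wild type the same sums were 140 and 190 CPM, and 4769 and 6233 RPKM. The share of miR-34a was lower with TNF in wild type as well, at 93.3% and 56.1% among CPM values and 56.0% and 47.0% among RPKM values, and the difference between the genotypes was not tested.

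**Figure D2:**
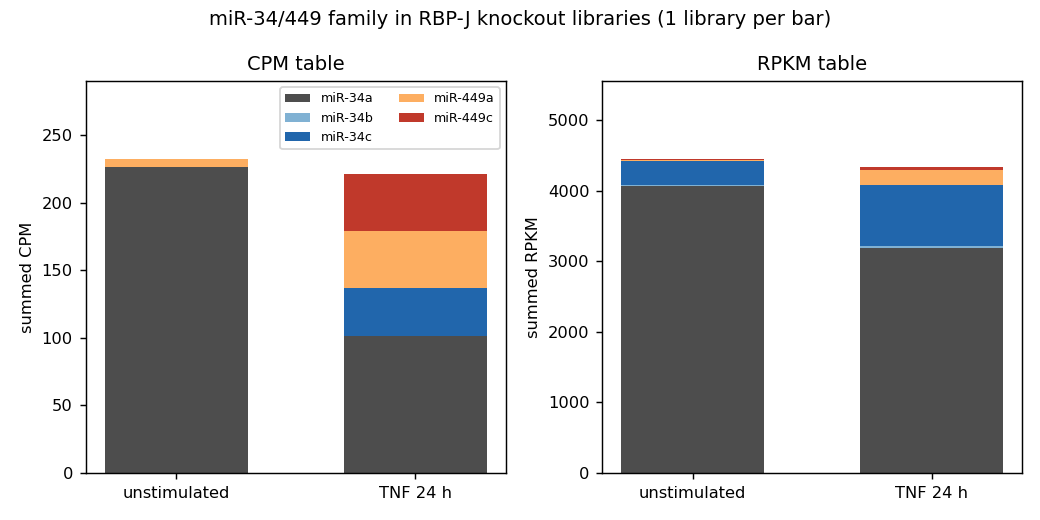
Stacked bars give the level of each miR-34 and miR-449 family member in the 4 knockout libraries, in CPM on the left and RPKM on the right, with 1 library per bar. The total stays near 232 and 221.5 CPM and near 4442 and 4332 RPKM while the coloured part from miR-34c, miR-449a and miR-449c is larger with TNF.

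Mir449c and Mir449a lie in an intron of Cdc20b on chromosome 13 (113035983 to 113037624), just past the start of that gene. The window from 250 bases before to 50 after the Cdc20b start is shown because it is the nearest annotated start to a pair that was higher in all comparisons within a table, at chr13:113035129-113035428 on the plus strand of GRCm38.p6 (RefSeq). Capitals mark a match to the kappa-B site consensus on the minus strand, in the left part, and the RBP-J core TGGGAA on the plus strand, in the right part.
Cdc20b promoter window: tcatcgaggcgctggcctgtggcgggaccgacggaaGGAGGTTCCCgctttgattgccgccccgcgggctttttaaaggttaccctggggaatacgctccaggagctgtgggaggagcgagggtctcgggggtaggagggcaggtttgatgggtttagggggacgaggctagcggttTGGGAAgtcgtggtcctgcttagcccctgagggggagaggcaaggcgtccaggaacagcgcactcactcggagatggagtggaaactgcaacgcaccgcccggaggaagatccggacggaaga
Of 32851 RefSeq windows of this length, 25.6% hold TGGGAA on either strand and 8.46% a kappa-B match, and the motifs do not overlap here. The windows of Mir155hg and of Mirc35hg, the annotated transcript that starts upstream of Mir183, held neither string. A match is a description of letters and says nothing about binding.

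miR-129, miR-31 and miR-365 completed the leading higher miRNAs. miR-129 had 0 CPM unstimulated and 33.0 CPM with TNF, at least 3.88-fold higher against 3 reads, and 14.7 and 69.8 RPKM. Of its hairpins, Mir129-2, in an intron of Mir670hg on chromosome 2, carried 16 and 84 reads in the RPKM table, and Mir129-1 carried 3 and 1. miR-31, whose hairpin lies in an exon of the lincRNA gene AL805899.1 and which has been tied to osteoclast formation, had 0 and 37.7 CPM, at least 4.44-fold higher, and 186 and 701 RPKM, from 294 and 1009 reads. The fitted changes were 3.63 ± 1.21 and 3.59 ± 1.27 (limma, adjusted p = 0.278 and 0.329), and limma on the knockout libraries alone called both (adjusted p = 0.0303 each). That fit has only 4 libraries from which to measure spread. Both miRNAs started from 0 CPM, so their log2 changes in that table, 5.09 and 5.27, depend on the added 1. Against 3 reads these were 1.96 and 2.15.

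miR-365 had 19.8 CPM unstimulated and 96.6 CPM with TNF, from 7 and 82 reads, and 3.94 and 36.9 RPKM. The fitted change was 2.58 ± 0.80 (adjusted p = 0.278 in limma and 0.00738 in DESeq2). Among the CPM values, 5 and 54 of these reads came from the 5p strand specific to Mir365-2, and in the RPKM table Mir365-2 had 4 and 51 reads whereas Mir365-1 had 2 and 4. miR-193a and miR-193b, the neighbours of Mir365-2 on chromosome 11 and of Mir365-1 on chromosome 16, were listed in the RPKM table only.
miR-193a-3p: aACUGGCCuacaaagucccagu
miR-193b-3p: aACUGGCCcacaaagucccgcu
Mir193 was at 8.14 RPKM unstimulated and 60.3 RPKM with TNF, from 8 and 54 reads, and Mir193b at 12.7 and 61.5 RPKM, from 15 and 66 reads. Both shared the direction of miR-365, and with 1 library a side no test was possible for them.

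The rest of the 15 were lower in abundance or less certain. miR-149, in an intron of Gpc1, had 33.98 and 126 CPM and 832 and 2101 RPKM, a fitted change of 1.60 ± 0.71 (limma, adjusted p = 0.545). miR-1945, miR-879, miR-1930 and miR-1960 had 11 reads or fewer in any CPM library of the knockout, and the last 3 of them had 0 reads unstimulated and 2 to 5 with TNF, which is too few for a fold in that table. Their RPKM levels were 3.44 to 12.0 unstimulated and 24.6 to 31.02 with TNF.

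**Figure D3:**
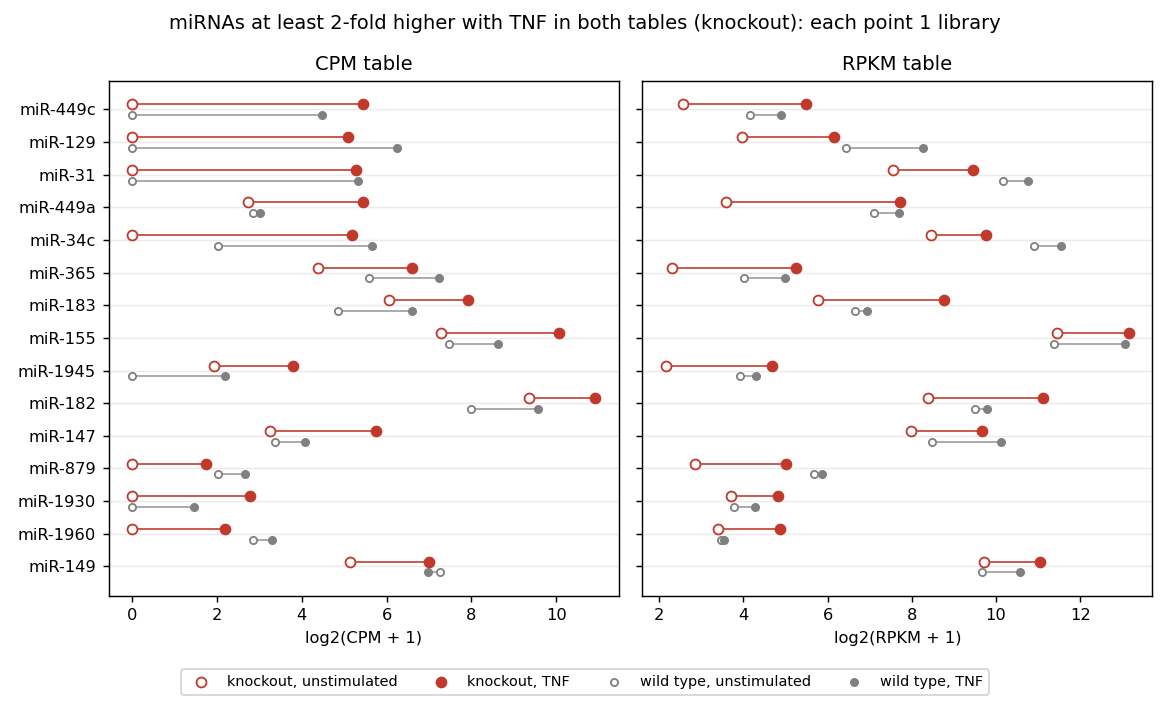
For the 15 miRNAs at least 2-fold higher in both tables, open and filled points join the unstimulated and TNF library of the knockout (red) and of wild type (grey) on a log2(value + 1) axis, with the CPM table on the left and the RPKM table on the right. In the RPKM panel the unstimulated knockout lies left of unstimulated wild type for 13 of 15, a count favoured by how the 15 were chosen.

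Starting levels of the genotypes were compared for these 15. In the RPKM table the unstimulated knockout library was below unstimulated wild type for 13 of the 15, against 58.2% of all 184. In the CPM table it was below for 8 of the 15, against 61.4%. The 15 were chosen by their ratio to these unstimulated knockout values, which favours low ones. Nothing is therefore read from the counts. Of the 15, miR-449a was at 11.1 RPKM in the unstimulated knockout, 137 in unstimulated wild type, 208 in the knockout with TNF and 206 in wild type with TNF. miR-31 was at 186, 1150, 701 and 1723 RPKM in the same order. The CPM values, in that order too, were 5.66, 6.22, 42.4 and 7.11 for miR-449a and 0, 0, 37.7 and 39.1 for miR-31. For both, the wide gap between the unstimulated genotypes was thus in the RPKM table alone. The part of the unstimulated knockout libraries in the result was not tested.

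On the lower side, miR-181c and miR-181d were the 2 miRNAs at least 2-fold lower in both tables. Their hairpins lie side by side in an intron of Nanos3 on chromosome 8 (84178716 to 84178961), and the miR-181 family tunes signalling in lymphoid and myeloid cells. miR-181c was at 56.6 CPM unstimulated and 23.6 CPM with TNF and at 900 and 341 RPKM, and miR-181d at 51.0 and 23.6 CPM and at 404 and 114 RPKM. Fitted changes were -1.31 ± 0.78 and -1.45 ± 0.78 (limma, adjusted p = 0.813 and 0.706). The abundant members differed less, with miR-181a at 20791 and 16697 CPM and 17233 and 15616 RPKM, and the seed as a whole held 33228 and 24078 CPM, and 35949 and 34154 RPKM.

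On the X chromosome 2 clusters held only hairpins that were lower with TNF, counting those with at least 20 RPKM in either knockout library. In the introns of Clcn5 (X, 7237683 to 7248497), all 5 of Mir500, Mir501, Mir362, Mir188 and Mir532 were lower with TNF in both tables, with log2 changes of -2.12 to -0.97 among CPM values and -0.89 to -0.13 among RPKM values. In the CPM table miR-500, at -2.12, had 3 and 1 reads and miR-188 had 2 and 2, too few for a fold or a direction there. In the cluster that holds Mir450b, Mir450-1, Mir542, Mir351, Mir503 and Mir322 (X, 53047997 to 53054349), all 6 hairpins were lower in both tables, with changes of -2.63 to -1.37 and -0.69 to -0.02. Here miR-450a, the product of Mir450-1, had 3 and 2 reads in the CPM table, again too few. The X cluster of Mir106a and Mir363 went both ways in the RPKM table, with Mir106a, Mir18b, Mir20b and Mir363 lower but Mir19b-2 at 0.40 and Mir92-2 at 0.01. None passed the test, and the CPM table as a whole was lower with TNF for 134 of 184. Members of a cluster are cut from one precursor and are not independent measurements.
miR-503-5p: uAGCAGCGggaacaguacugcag
miR-362-5p: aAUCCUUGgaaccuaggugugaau
miR-503, which inhibits osteoclast formation by acting on RANK, was at 19.8 and 2.36 CPM from 7 and 2 reads and at 183.5 and 113 RPKM from 194 and 109 reads (-1.66 ± 1.02, limma adjusted p = 0.813). miR-362 was at 22.7 and 5.89 CPM and at 274 and 147 RPKM (-1.33 ± 0.83, same adjusted p).

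miR-223, the granulocyte and macrophage miRNA that marks myeloid cells, was the 1 miRNA lower at an unadjusted p under 0.05. It was at 4522 CPM unstimulated and 989 CPM with TNF, from 1597 and 839 reads, and at 42379 and 35001 RPKM. The fitted change was -1.23 ± 0.53 (limma, adjusted p = 0.52), most of it from the CPM table, where the change was -2.19 against -0.28. In bulk libraries fewer cells of a kind and less RNA per cell cannot be told apart. The lymphoid miR-150 had 1 read in each CPM library and 354 and 130 RPKM. miR-195a, miR-450a, miR-501 and miR-338 completed the 10 lowest, with fitted changes of -1.33 to -0.82. Of these, miR-195a had 1 and 0 reads in the CPM table and miR-450a had 3 and 2, too few for a fold there.

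The counts of the next lists stand beside 21.2% higher and 25.5% lower in both tables over all 184. Of 9 tested osteoclast promoting miRNAs, 3 were higher in both tables (miR-182, miR-183 and miR-31) and 2 were lower, with a median log2 fold change of 0.12. Of 6 tested osteoclast restraining miRNAs, 2 were higher (miR-155 and miR-125a) and 3 lower, with a median of -0.40, and over all 184 the median was -0.10. Among 7 macrophage and myeloid miRNAs, 1 was higher in both and 3 were lower, with a median of -0.27. None of these lists held a miRNA that passed in limma over all 184.

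The most abundant miRNAs listed in both tables had small fitted changes, apart from miR-222. By mean rank over the 4 knockout libraries the leading 10 were miR-21a, miR-22, miR-27b, let-7f, miR-92a, miR-222, miR-10a, miR-30d, let-7i and miR-142a. Leaving out miR-222, their fitted changes were -0.25 to 0.44, and single tables reached further, as with miR-27b at -0.01 in CPM and 0.86 in RPKM. miR-191 and miR-378a-3p, abundant rows of the CPM table alone, are described with the rows listed in 1 table. miR-21a, which TNF and STAT3 signalling can raise, was at 74130 and 92850 CPM and at 982346 and 969516 RPKM, 0.15 ± 0.30 with a 95% interval of -0.51 to 0.82. miR-22 was at 69197 and 88328 CPM and at 1164780 and 1229690 RPKM, 0.22 ± 0.25 (-0.34 to 0.77). Of 55 tested miRNAs whose mean CPM over the knockout libraries reached 1000, 1 was at least 2-fold higher in both tables, miR-182. The other 14 of that kind had a mean CPM below 1000. In the RPKM table the order differed, with miR-155 at 2814 and 9177 RPKM and miR-182 at 334 and 2232 RPKM.

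Rows listed in 1 table only added several miRNAs with larger read counts. Such rows with at least 20 reads (CPM table) or a value of 20 (RPKM table) in either knockout library numbered 29 and 19. Such a minimum admits rows through the library where they are high, so nothing is read from the counts. At least 2-fold higher were 9 of 29 (31.0%), against 15.8% of all 203 rows of the CPM table at that level, and 7 of 19 (36.8%), against 21.6% of 199 rows of the RPKM table. At least 2-fold lower were 5 of 29 (17.2%, against 23.2%) and 2 of 19 (10.5%, against 5.53%). Of those higher, 5 of the 9 and 6 of the 7 reached the minimum with TNF only. With 1 library a side there was no test, and intervals on reads cover counting error only.

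miR-378a-3p, an intronic product of the gene for the metabolic coactivator PGC-1beta, was the abundant one among them. It was at 7935 CPM unstimulated from 2802 reads (95% exact Poisson interval 2699 to 2908) and at 47467 CPM with TNF from 40283 reads (39891 to 40678). That is 5.98-fold higher, and in wild type it was at 4494 and 31765 CPM, 7.07-fold higher. The related miR-378c was at 1011 and 3298 CPM and miR-378d at 93.5 and 250 CPM, and these near-identical copies can share reads, so their division is uncertain. miR-378b had 0 and 20 reads. miR-378c and miR-378d, like miR-191 and let-7e, are named here after their values were seen.

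miR-6539 had 28.3 CPM unstimulated from 10 reads (4.80 to 18.4) and 628 CPM with TNF from 533 reads (489 to 580), 22.2-fold higher. In wild type it was at 28.01 and 391 CPM. Mir455, in an intron of the collagen gene Col27a1, was at 19.7 RPKM from 24 reads and 179 RPKM from 199 reads, 9.10-fold higher, and at 69.1 and 416 RPKM in wild type. miR-6240 (1 and 20 reads) and miR-7213-5p (2 and 23 reads) were higher as well, from few reads.
miR-455-3p: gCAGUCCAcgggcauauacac
miR-191-5p: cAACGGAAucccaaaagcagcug
miR-191-5p was the most abundant row of the TNF library of the CPM table, at 120472 CPM against 67413 CPM unstimulated, 1.79-fold higher, and in wild type at 87520 against 83233 CPM.

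Differences toward lower values were smaller among these rows. Mir363, a member of the miR-106a/363 cluster on the X chromosome, was at 57.3 RPKM unstimulated from 64 reads and 17.7 RPKM with TNF from 18 reads, 0.309 times the unstimulated value. Among CPM rows miR-690 was at 76.5 and 25.9 CPM, miR-664-5p at 1141 and 468 CPM from 403 and 397 reads, and miR-1843a-5p at 90.6 and 41.2 CPM. The unstimulated wild-type library had 1332 CPM of miR-690, far above the other 3 libraries of that table.

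**Figure D4:**
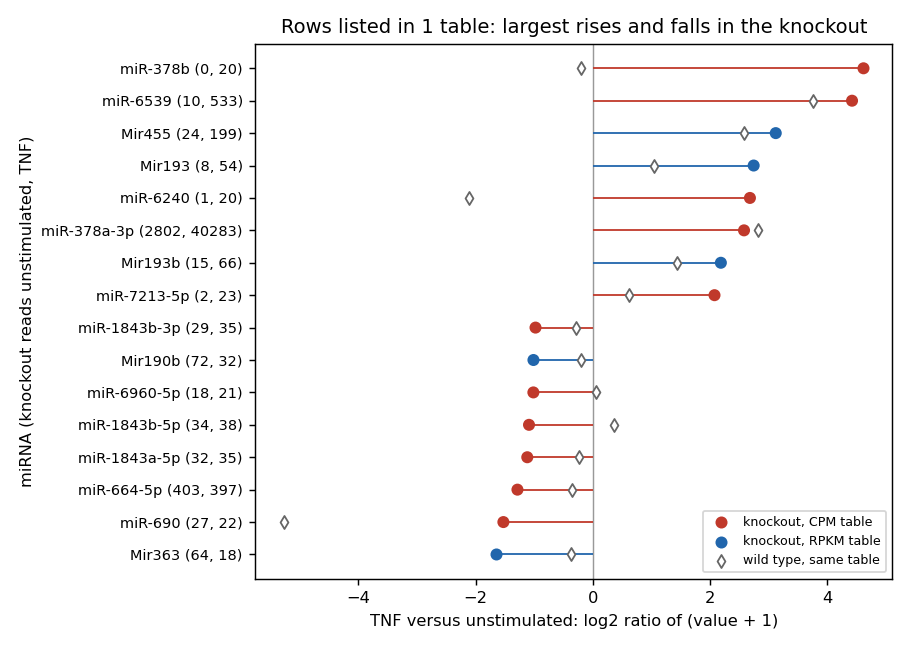
For the 8 rows with the highest and the 8 with the lowest log2 ratio of TNF to unstimulated knockout among miRNAs listed in 1 table, filled points give the knockout and open diamonds wild type in the same table, with the knockout reads in brackets. miR-378a-3p, miR-6539, Mir455, Mir193 and Mir193b lie to the right in both genotypes, and miR-6240 and miR-378b to the right in the knockout, from 20 reads with TNF each, and left of 0 in wild type.

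Arm use was compared in the CPM table, where the 5p and 3p strands of a hairpin are listed apart. Of 116 miRNAs with both arms, 72 had at least 20 reads in each knockout library and 5 on each arm. The share of 5p reads moved by a median of 1.37 percentage points, and by under 5 points for 54 of 72. For 21 the 95% Wilson intervals of the libraries did not overlap, among them small changes at many reads, such as 0.10 points for miR-10a. For 3 the major arm was another one with TNF, namely miR-139 and, with overlapping intervals, miR-339 and miR-18a. With 1 library a side, the intervals cover counting error only.

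miR-139, a hairpin in an intron of Pde2a on chromosome 7, had the largest change. Its 5p share was 43.3% of 30 reads unstimulated (27.4 to 60.8) and 82.5% of 114 reads with TNF (74.5 to 88.3). In wild type the share was 18.1% of 127 reads and 65.5% of 58 reads, the same direction.
miR-139-5p: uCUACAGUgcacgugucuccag
miR-139-3p: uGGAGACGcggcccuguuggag
The arms carry different seeds. miR-1981 went the other way, from 89.5% of 313 reads to 71.5% of 172 reads, and so did miR-342, from 784 of 1045 reads to 469 of 815 reads. In wild type the 5p share of miR-1981 was 93.8% and 80.8%, and that of miR-342 was 55.7% and 63.9%, opposite to the knockout. For miR-339 and miR-18a the intervals overlapped.

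**Figure D5:**
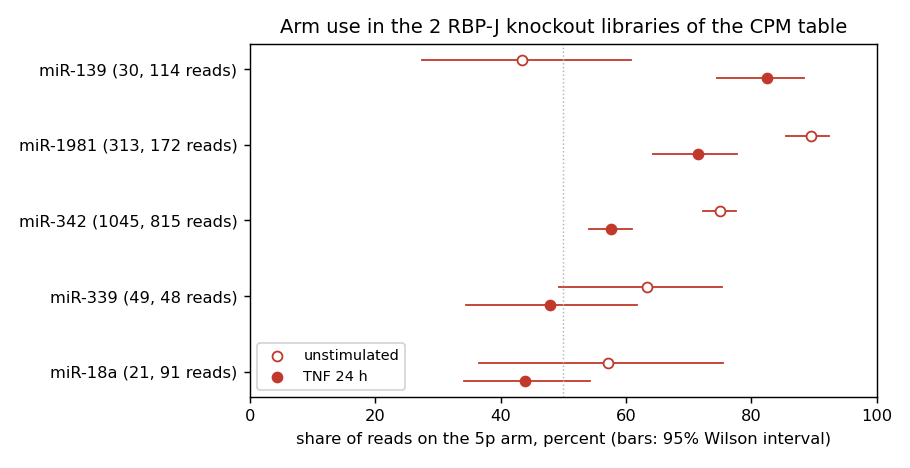
For the 5 miRNAs with the largest change of arm share, points give the percent of reads on the 5p arm in the unstimulated (open) and TNF (filled) knockout library of the CPM table, with 95% Wilson intervals as bars. miR-139 lies at 43.3% and 82.5%, whereas the bars of miR-339 and miR-18a overlap.

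Summed by seed, 160 of the tested miRNAs with a RefSeq sequence for their major arm fell into 116 seed groups. Of these 11 were at least 2-fold higher in both tables and 0 were at least 2-fold lower, and each of the 11 held a single miRNA. Of the 24 groups with more than 1 member, 13 went the same way in both tables. The let-7 seed, the largest group with 8 tested members, was at 251409 and 199335 CPM but at 286717 and 372912 RPKM, opposite directions. The pair miR-500 and miR-501 was at 581 and 253 CPM and at 227 and 145 RPKM.

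Set against wild type, no miRNA passed for a difference of the TNF response in limma, and none of the 184 reached an unadjusted p of 0.05. The lowest adjusted p was 0.988. edgeR and DESeq2 also called 0, with 4 and 2 at an unadjusted p under 0.05. Of the 15 miRNAs at least 2-fold higher in both tables of the knockout, 14 were higher in both tables of wild type, miR-149 being the other. Over all 184, wild type with TNF was higher for 55 and lower for 128 among CPM values. Among RPKM values it was higher for 143 and lower for 41. Some of the 14 differed little in the wild-type CPM libraries, such as miR-1930 at 0 and 1.78 CPM and miR-449a at 6.22 and 7.11 CPM. The fitted difference, knockout minus wild type, was 0.83 ± 0.76 log2 units for miR-155, 1.42 ± 1.13 for miR-183 and 3.03 ± 1.48 for miR-449a (limma, adjusted p = 0.988 each). All of them belong to the 15, which were chosen by their change in the knockout. That choice favours a positive difference, so nothing is read from the sign. A p that misses the threshold does not show that the genotypes respond alike.

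Some miRNAs went opposite ways in the tables. miR-200a was at 8.5 CPM from 3 reads unstimulated and 0 with TNF, but at 5.97 and 40.9 RPKM, and miR-200b at 150 and 60.1 CPM but 124.7 and 384 RPKM. Both belong to the epithelial miR-200 family, and miR-505, miR-466h and miR-467e were the other 3 of the 5 that moved at least 2-fold in opposite directions. Summed over the epithelial list, 2 of 9 tested members were higher in both tables and 2 lower, and the total was 646 and 725 CPM and 5485 and 7184 RPKM. Totals of stromal markers were 275 and 173 CPM and 6937 and 13243 RPKM, and those of lymphoid markers 2962 and 962 CPM and 7996 and 11732 RPKM. Erythroid markers had 2631 and 2522 CPM and 1036 and 1878 RPKM. In the CPM table miR-486a-5p had 454 and 1052 reads and miR-486b-5p 450 and 1046, so reads may be counted in both rows. The erythroid miR-451a was at 10.3 and 5.12 RPKM. Single miRNAs weighed heavily in the other RPKM totals. Epithelial miR-192 was at 4982 and 6376 RPKM, lymphoid miR-342 at 7584 and 11584 and stromal miR-143 at 3380 and 11410. The stromal miR-10b was lower with TNF, at 2767 and 753 RPKM. The part of these cell types in the results was not tested.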

How the data were processed

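Bone marrow-derived macrophages of 2 genotypes, with or without TNF, were profiled with the Illumina TruSeq small RNA kit, per the labels' protocols. The submitters' processing notes name CASAVA 1.8.2, and the aligner, counter and genome build are not given in the sources used here. The authors deposited CPM for 452 mature rows, and per the file headers no unit for 371 hairpin rows, whose deposited values were read as RPKM because 94.8% to 95.2% of low values were whole reads at GENCODE M21 lengths (tolerance 0.1 reads). Of low CPM values 100% were whole. Arms and hairpin copies were summed to 329 and 350 miRNAs. Values were taken as log2(value + 1) and fitted in limma 3.58.1 (R 4.3.3, eBayes with a trend) over 8 libraries in 4 groups. The added 1 understates the change between low values above 0. A change that starts from 0 depends on the added 1 and may be overstated. For miR-129 in the CPM table of the knockout it was 5.09, against a lower bound of 1.96. The deposited table was a block, because the tables differ in unit and because deviations from group means correlated at 0.748 to 0.915 within a table, so the spread measures how far the tables disagree. All p-values are two-sided. edgeR 4.0.16 and DESeq2 1.42.0 were run on recovered reads with the same block. The step was tested on simulated counts. Other settings were pseudocounts of 0.5 and 5, filters, scalings, the knockout libraries alone, no block and each library left out. Hairpins within 10 kb on a strand made a cluster, described over those with at least 20 RPKM. Of the 452 rows 381 matched a RefSeq mature sequence. miRNAs were named if among the 10 highest or 10 lowest by the smaller same-sign change, at an unadjusted p under 0.05, among the 10 most abundant or in a list, among the 8 largest rises or falls of rows in 1 table, the 5 largest arm changes or the 10 leading seed groups. Members, lists and rules were chosen with earlier results of these data known.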

Additional observations from a re-analysis of the deposited data

Results flagged for a closer look

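Of the 184 tested miRNAs, 7 went one way with TNF in both tables of the knockout and the other way in both tables of wild type. None had an unadjusted p under 0.05 for the difference in limma, so the difference was not shown (lowest adjusted p = 0.988). The knockout minus wild-type difference on the log2 scale was -2.59 for miR-127 and 2.61 for miR-184, which had 1 and 1 and 0 and 3 reads in the knockout libraries of the CPM table. It was -0.89 for let-7a, -0.71 for miR-101a, -0.73 for miR-199a, -0.77 for miR-532 and 0.70 for miR-669a.

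Among rows in 1 table, with 1 library a group, miR-378b (log2 ratio 4.62 in the knockout and -0.20 in wild type) and miR-6240 (2.68 and -2.12) were higher with TNF in the knockout and lower in wild type. miR-1843b-5p (-1.09 and 0.36) and miR-6960-5p (-1.01 and 0.06) went the opposite way. These differences were not tested.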

How the results depend on the processing

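The count of miRNAs called for TNF in the knockout was 0 under both other pseudocounts, both filters and both scalings, 5 with the knockout libraries alone, 1 in edgeR and 4 in DESeq2. With no replicate block 0 were called, and the number at an unadjusted p under 0.05 went from 16 to 0, since the change of unit then enters the spread. Leaving out 1 library gave 0 to 7 calls, 6 to 22 at an unadjusted p under 0.05, and 0 to 2 calls for the difference from wild type (miR-24 and miR-7a with the unstimulated wild-type RPKM library left out). Calls were 0 without either knockout library of the CPM table or the unstimulated one of the RPKM table, 4 without the knockout RPKM library given TNF, 6 without either wild-type library of the CPM table and 7 without either of the RPKM table. Rows in 1 table at least 2-fold different went from 23 to 93 with no minimum and 12 at 50 reads. Of 49 named miRNAs, 39 kept their direction in all settings. Sign turned for miR-10a (-0.33 to 0.22 with 1 library left out, 0.062 with median-of-ratios scaling, 0.16 in edgeR, 0.044 in DESeq2, 0.30 within the RPKM table), let-7f (-0.13 to 0.25 with 1 left out, -0.078 rescaled to listed miRNAs, -0.16 within the CPM table), miR-142a (0.0055 in edgeR, 0.020 within RPKM), miR-27b (-0.026 to 0.87 with 1 left out, -0.013 within CPM), miR-212 (-0.58 to 1.01 with 1 left out, -0.71 within CPM), miR-34b (0 within CPM), miR-132 (-1.57 to 0.66 with 1 left out, 0.79 within RPKM), miR-181b (0.054 within RPKM), miR-21a (-0.15 to 0.46 with 1 left out, -0.019 within RPKM) and miR-30d (-0.70 to 0.21 with 1 left out, 0.16 within RPKM).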

Other observations

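Other families are given by their counts, beside 21.2% of all 184 higher in both tables and 25.5% lower in both. In both tables, 2 of 8 tested let-7 members were higher with TNF and 2 lower, 0 of 4 members of the miR-15 and miR-16 family were higher and 3 lower, and 2 of 9 members of the miR-17 clusters were higher and 0 lower. None of the 5 tested miRNAs of the miR-23, miR-27 and miR-24 clusters, the 3 of the miR-29 family or the 5 of the miR-30 family went one way in both tables. Median log2 fold changes of these lists were -0.10, -0.67, -0.03, 0.09, 0.00 and -0.05, in that order.

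The summed level of endothelial and platelet markers (miR-126a alone) was 11.3 CPM unstimulated and 9.43 CPM with TNF, and 398 and 184 RPKM. The imprinted Dlk1-Dio3 cluster had 2.83 and 1.18 CPM, from 1 read each, and 97.8 and 73.3 RPKM. Muscle and liver markers had 2.83 and 0 CPM and 5.10 and 4.64 RPKM.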
